A study of Mus musculus with 2 samples.

Results

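The genes of DNA replication were examined in a macrophage-like mouse line, RAW264.7, treated with 2 nuclear receptor ligands or with solvent. The set holds 45 genes chosen by name for their place in replication, and 44 of them were represented by at least 1 probe set with a single gene symbol, out of 18193 genes on the array. Chaf1a, the large subunit of chromatin assembly factor 1, was not analysed here. All 44 had a signal above the floor of 276.4 on both arrays, the floor being the median signal of all gene probe sets.

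Cells of the treated group received GW3965, a synthetic agonist of the liver X receptors (LXR), at 1 µM together with LG268, an agonist of the retinoid X receptors (RXR), at 100 nM for 24 h. Cells of the control group received DMSO for 24 h. Both groups stably expressed murine LXRα after chemical transfection, so the receptor was ectopic in the controls too, and no source used here states whether the line is 1 clone or a pool. Each group had 1 Affymetrix 430 2.0 array, so no difference below has a replicate check, and the ligands were not given singly.

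Replication begins when the origin recognition complex, CDC6 and CDT1 load the MCM helicase onto DNA in G1. In S phase CDC45 and the GINS complex join MCM to form the active helicase, DNA polymerase α with primase starts each strand, and the clamp PCNA, loaded by replication factor C, holds polymerases δ and ε on the template. Many of these genes are known to be transcribed together at the G1/S boundary under E2F transcription factors. RAW264.7 is a transformed line that proliferates in culture, unlike most mature macrophages.

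Both arrays had a trimmed mean signal of 2500, which the authors' MAS5 scaling sets, so a ratio compares a gene with the average of its array. The median log2 ratio of ligands over DMSO was -0.03 over 11077 measured genes. Hybridisation spike-ins (18 probe sets) had a median log2 ratio of 0.27, poly-A spike-ins (24 probe sets) 0.03 and 18S rRNA (3 probe sets) 0.50, and their part in the results was not tested. The 3′ to 5′ signal ratio of Actb was 1.15 with ligands and 1.18 with DMSO, and that of Gapdh 0.826 with ligands and 0.853 with DMSO. All 8 macrophage markers examined were measured. The lymphocyte markers Cd3e, Cd3g and Cd79a and the fibroblast markers Col1a1, Col1a2 and Pdgfra lay below the floor on both arrays, and the granulocyte markers Mpo and Elane only just exceeded it with ligands (302 and 334) and not with DMSO (18.3 and 200.4).

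Most replication genes had slightly lower signals on the array of ligand-treated cells. By the brightest probe set of each gene, all 44 measured members had a negative log2 ratio, where 53.8% of all measured genes did. When all probe sets of a gene were averaged, 39 of 44 were below 0, and the exceptions were Mcm10, Gins1, Rfc1, Pola2 and Uhrf1. By the brightest probe sets the median log2 ratio was -0.29, a 1.22-fold lower signal, and the values ran from -0.64 for the checkpoint kinase Chek1 to -0.02 for the clamp loader subunit Rfc3. The differences were small: 20 of 44 members were at least 20% lower (a ligand signal of at most 80% of the DMSO signal, or a log2 ratio of -0.32 or less), against 15.5% of measured genes. At least 1.5-fold lower were 3 members, against 4.77%, and at least 1.1-fold lower were 36, against 34.5%. No member was 2-fold lower, where 0.776% of measured genes were, and none was higher by the fold that 20% lower implies, where 15.7% were. In bulk RNA a smaller share of cells in S phase and less of each transcript per cell cannot be told apart.

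**Figure D1:**
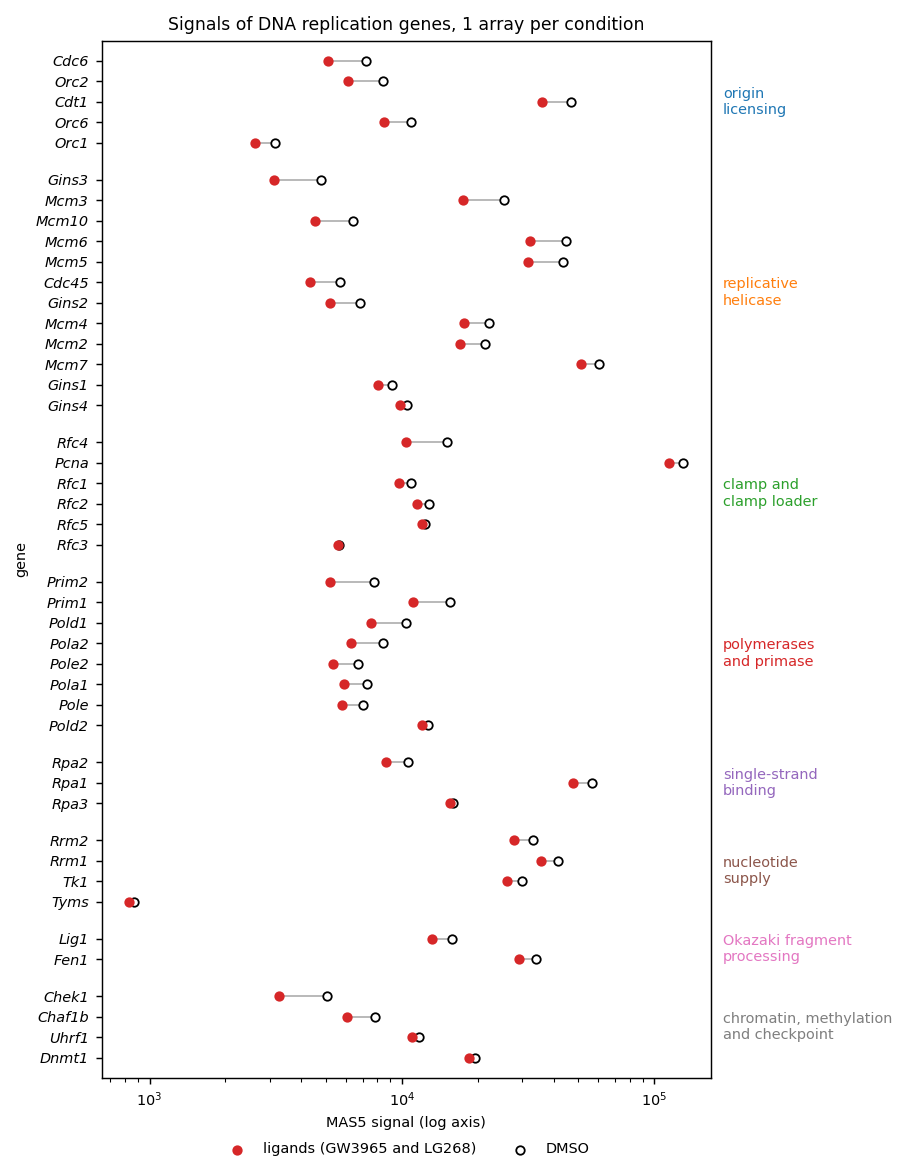
MAS5 signal of the brightest probe set of each of 44 replication genes (log axis), by step of replication and then by ratio. Filled points are ligand-treated cells and open points DMSO-treated cells, 1 array each; the filled point lies left of the open one in every row, by the most for Chek1 and Gins3 and by the least for Rfc3. Signals of different genes come from different probes and are not comparable with each other.

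The log2 ratios of the members had an SD of 0.17 across genes, with the middle 50% between -0.46 and -0.18. In the lowest 25% of all measured genes fell 29 of 44, while only 3 fell in the lowest 5%. Of the 44, 43 had a signal above 2186, a limit that 25% of gene probe set signals exceed. Among the 6967 measured genes above that signal, 55.3% had negative ratios and 12.0% were at least 20% lower. These brighter genes had a median log2 ratio of -0.03, with the middle 50% between -0.20 and 0.15, a band of similar width to that of the members.

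**Figure D2:**
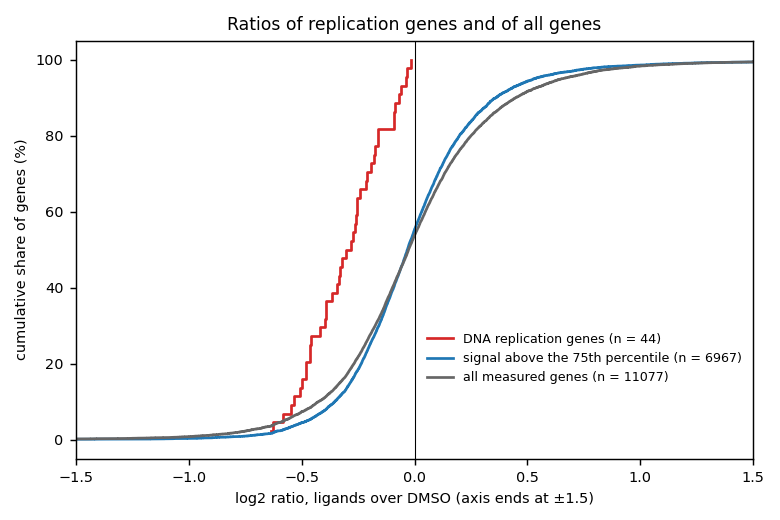
Cumulative share of genes (%) against the log2 ratio of ligands over DMSO for the 44 replication genes, for the 6967 measured genes with a signal above 2186 (the 75th percentile) and for all 11077 measured genes. The curve of the replication genes lies left of both others except at its lowest values and reaches 100% just below 0.

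Measurement error within the arrays could be judged from genes with several probe sets. The 44 members had 100 probe sets, of which 87 exceeded the floor on at least 1 array, and 76 of these 87 had negative ratios, against 52.7% of all probe sets above the floor. At least 20% lower were 37 of the 87, against 17.5%. Of 30 members with 2 or more such probe sets, 21 had all of them below 0 and 9 had both signs, counts that include readings with 1 signal below the floor, which are bounds. For 29 members 2 or more probe sets exceeded the floor with ligands and with DMSO, and their log2 ratios scattered around the gene's mean with an SD of 0.23, against 0.32 for all 4866 such genes. In the brighter range it was 0.17 over 25 members. A single gene's ratio near the median of -0.29 is therefore less than 2 such SDs from 0, and the spread between cultures is unknown.

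Probe sets with positive ratios were mostly weak. Of 76 member probe sets with a signal above 2186, 72 were negative and 4 were positive, of which 2 belonged to Rfc1, 1 to Rfc2 and 1 to Uhrf1. Of measured genes above that signal 55.3% were negative by their brightest probe set. Over all 87 member probe sets above the floor 11 were positive, so among the weaker ones positive ratios outnumbered negative ones. By type, 54 probe sets with the plain suffix had a median log2 ratio of -0.25, and 13 with the suffix _a_at had -0.28. The 7 with _s_at and 13 with _x_at, which can detect transcripts of several genes, had medians of -0.39 and -0.46.

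**Figure D3:**
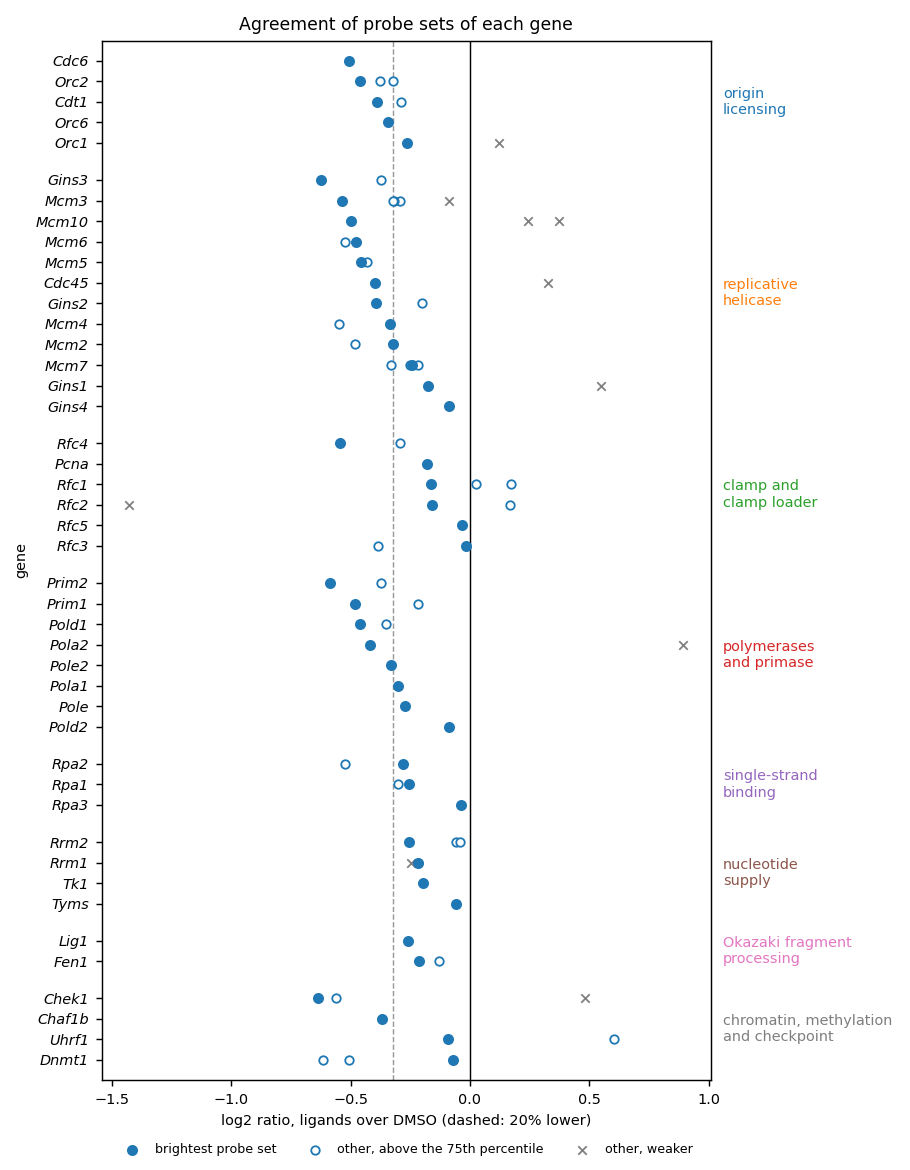
Log2 ratio of ligands over DMSO for every probe set above the floor on at least 1 array, by gene and step. Filled points are the brightest probe set of a gene, open circles other probe sets with a signal above 2186 (the 75th percentile), and crosses weaker ones; the dashed line marks 20% lower. Filled points all lie left of 0, and the points right of 0 are mostly crosses, with 2 open circles for Rfc1 and 1 each for Rfc2 and Uhrf1.

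Promoters of 3 of the 4 members with the lowest ratios and no positive probe set are shown with that of Rfc3, the member with the highest ratio, because E2F sites and CCAAT boxes are known elements of replication gene promoters. The fourth, Prim2, is named only. Each window runs from 250 bases before to 50 after the gene's start in RefSeq's GRCm38.p6 annotation, on the gene's strand. Capitals mark matches on either strand to TTCCCGC and TTGGCGC, which are forms of the E2F site, to CCAAT, the NF-Y box, and to TTTGAA, the cell cycle homology element. Matches may overlap each other, as the letters CCAA do in the reverse of TTGGCGC.
Gins3, chr8:95633309-95633608, plus strand: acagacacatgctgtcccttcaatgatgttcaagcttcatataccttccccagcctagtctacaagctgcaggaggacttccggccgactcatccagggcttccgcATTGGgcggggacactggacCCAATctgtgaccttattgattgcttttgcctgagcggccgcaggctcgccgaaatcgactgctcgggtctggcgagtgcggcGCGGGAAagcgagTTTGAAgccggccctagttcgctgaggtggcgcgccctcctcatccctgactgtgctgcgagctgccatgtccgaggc
Rfc4, chr16:23127681-23127980, minus strand: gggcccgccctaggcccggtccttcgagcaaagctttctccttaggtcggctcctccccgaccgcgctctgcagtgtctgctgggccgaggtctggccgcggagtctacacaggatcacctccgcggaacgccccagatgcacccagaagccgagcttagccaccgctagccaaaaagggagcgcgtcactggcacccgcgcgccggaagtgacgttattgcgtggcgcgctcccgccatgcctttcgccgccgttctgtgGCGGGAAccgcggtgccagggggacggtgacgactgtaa
Mcm3, chr1:20820263-20820562, minus strand: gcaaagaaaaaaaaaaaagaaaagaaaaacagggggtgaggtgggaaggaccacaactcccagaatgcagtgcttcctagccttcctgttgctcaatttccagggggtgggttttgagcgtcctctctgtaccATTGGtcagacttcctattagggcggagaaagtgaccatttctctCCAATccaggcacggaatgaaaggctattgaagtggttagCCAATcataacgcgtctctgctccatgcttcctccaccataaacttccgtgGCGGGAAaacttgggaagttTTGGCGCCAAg
Rfc3, chr5:151651159-151651458, minus strand: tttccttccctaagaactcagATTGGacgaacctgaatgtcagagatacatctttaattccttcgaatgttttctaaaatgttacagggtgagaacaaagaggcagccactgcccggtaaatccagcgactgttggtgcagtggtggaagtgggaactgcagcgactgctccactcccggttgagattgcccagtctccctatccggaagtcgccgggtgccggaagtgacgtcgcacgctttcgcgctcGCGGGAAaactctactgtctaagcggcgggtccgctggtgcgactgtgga

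All 4 windows hold a match to TTCCCGC, each on the opposite strand (read as GCGGGAA), including that of Rfc3, whose ratio was the highest of the members. Mcm3 also has a palindromic pair of TTGGCGC matches near the window's end and 3 CCAAT boxes. Of the 44 measured members, 37 were found in the promoter table with 46 windows. TTCCCGC occurred in 16 of these windows (34.8%), against 8.34% of 11514 windows of measured genes and 4.60% of all 32851 windows. TTGGCGC occurred in 11 (23.9%), against 4.33% and 2.45%. At least 1 of these E2F forms was found in 23 windows (50%), against 12.1% and 6.81%. CCAAT was found in 28 (60.9%), against 37.7% and 37.4%, and TTTGAA in 6 (13.0%), against 12.0% and 17.9%.

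Ratios of members with and without an E2F form overlapped. The 22 members with either E2F form had a median log2 ratio of -0.35 and a range of -0.64 to -0.02, and the 15 members without had a median of -0.26 and a range of -0.50 to -0.03. Among other measured genes the 1282 with either form had a median of -0.05, and the 7728 without one of -0.02. These are descriptions of letters in a window and not of binding.

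Origin licensing genes were lower by their brightest probe sets. All 5 had negative ratios with a median of -0.39 on the log2 scale, and 4 were at least 20% lower. Of all measured genes 53.8% were negative and 15.5% at least 20% lower. Cdc6, the ATPase that helps load MCM at origins, had a signal of 5095 with ligands and 7236 with DMSO, a log2 ratio of -0.51 from its single probe set. Cdt1, which brings MCM to the origin, had signals of 35794.5 with ligands and 46940 with DMSO (log2 ratio -0.39), and a second probe set gave -0.29. The 2 probe sets thus agreed to within the probe set SD.

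The origin recognition complex marks the sites at which licensing occurs. Orc2, a core subunit, had signals of 6105 with ligands and 8409.5 with DMSO, and its 3 probe sets gave log2 ratios of -0.46, -0.37 and -0.32. Orc6, the smallest subunit, had 8531 with ligands and 10832 with DMSO (-0.34). Orc1, the subunit whose level varies with the cell cycle in mammalian cells, had 2616 with ligands and 3136 with DMSO (-0.26). A weaker second probe set of Orc1 had the other sign, 862 with ligands and 792 with DMSO (0.12), so its direction rests on the brighter one.

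Subunits of the replicative helicase had a median log2 ratio of -0.40 over 12 genes, with 8 genes lower by 20% or more and 1 by 1.5-fold. The shares of all measured genes were 15.5% and 4.77%. The 6 subunits of the MCM2-7 ring, the motor that unwinds DNA, had log2 ratios from -0.53 to -0.24 by their brightest probe sets. Mcm3 had signals of 17448 with ligands and 25277 with DMSO (log2 ratio -0.53), but 3 of its other 4 probe sets lay between -0.32 and -0.29 and the last, below the floor with ligands (156 with ligands and 293 with DMSO), gives only a bound. Mcm6 had 32142 with ligands and 44810 with DMSO (-0.48, second probe set -0.52). Mcm5 had 31685 with ligands and 43532 with DMSO (-0.46, second probe set -0.43). For Mcm5 and Mcm6 the probe sets nearly coincided.

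The other ring subunits were closer to DMSO by their brightest probe sets. Mcm4 had 17650.5 with ligands and 22238 with DMSO (-0.33), and its second probe set gave -0.55. Mcm2 had 17039.8 with ligands and 21297 with DMSO (-0.32), just short of 20% lower, and its second probe set gave -0.48. Mcm7 had 51146 with ligands and 60568 with DMSO (-0.24), and its 4 probe sets lay between -0.33 and -0.22. Over the ring the brightest probe sets spanned -0.53 to -0.24, and the other probe sets of Mcm2, Mcm3 and Mcm4 narrowed or turned round the order of those genes, so no ranking among subunits can be given.

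GINS and CDC45 turn the loaded ring into a working helicase. By their brightest probe sets the GINS subunits spanned a wider range than the ring subunits. Gins3 had signals of 3101 with ligands and 4784 with DMSO, a log2 ratio of -0.63 (1.54-fold lower), and its second probe set gave -0.37. Gins2 had 5195 with ligands and 6828 with DMSO (-0.39, second probe set -0.20). Both probe sets of each of these genes were negative. Gins1 had 8077 with ligands and 9113.5 with DMSO (-0.17), while a weak second probe set had 879 with ligands and 601 with DMSO (0.55), and the mean of both was 0.19. The smallest difference in the complex was that of Gins4, 9829.55 with ligands and 10457 with DMSO (-0.09). These 4 ratios ran from -0.63 to -0.09 by the brightest probe sets. The second probe sets of Gins1, Gins2 and Gins3 gave 0.55, -0.20 and -0.37, so no ranking among the GINS subunits can be given.

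Cdc45 had signals of 4317 with ligands and 5688 with DMSO (-0.40), and a probe set near the floor had 377 with ligands and 301 with DMSO (0.32), so that the mean of both was -0.04. Mcm10, which helps activate the helicase, had 4522 with ligands and 6390.1 with DMSO (-0.50). Its 2 weak probe sets, with signals of 604 and 688 with ligands and 466 and 580 with DMSO, gave 0.37 and 0.24. When all its probe sets counted equally, the log2 ratio of Mcm10 was 0.04, so its direction depends on that choice.

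The clamp and its loader had a median log2 ratio of -0.16 over 6 genes. At least 20% lower was 1 gene, a share near the 15.5% of all measured genes. Pcna, the sliding clamp, had signals of 114549 with ligands and 129953 with DMSO (-0.18). The gene at least 20% lower by its brightest probe set was Rfc4, a small subunit of the clamp loader. It had 10375 with ligands and 15151 with DMSO (-0.55, second probe set -0.29). Rfc5 had 12044 with ligands and 12336.5 with DMSO (-0.03). Rfc4 and Rfc5 belong to the same 5-subunit complex, whose other small subunits lay near 0 or at -0.16 by their brightest probe sets.

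Probe sets of the remaining loader subunits disagreed. Rfc3 had 5597 with ligands and 5658 with DMSO (-0.02), but a second probe set had 3930.1 with ligands and 5139 with DMSO (-0.39). Rfc1, the large subunit, had 9712 with ligands and 10877.5 with DMSO (-0.16), and the others gave 0.17 and 0.03. Rfc2 had 11467 with ligands and 12811 with DMSO (-0.16), a second probe set gave 0.17, and the last, at the floor with ligands, was at least 2.69-fold lower. No direction can be given for Rfc1 and Rfc2. The second probe set of Rfc3 was lower than that of Rfc4 (-0.29), so no ranking between Rfc3 and Rfc4 can be given.

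Among polymerases and primase, the median log2 ratio was -0.38, with 5 of 8 members lower by 20% or more and 1 by 1.5-fold. The shares of all measured genes were 15.5% and 4.77%. Both primase subunits, which make the RNA primers, were among the lower members. Prim2 had signals of 5178 with ligands and 7768 with DMSO (-0.59, or 1.5-fold lower, second probe set -0.37), and Prim1 had 11091 with ligands and 15507 with DMSO (-0.48, second probe set -0.22). Prim2 lay just inside the 1.5-fold limit and Rfc4, at 1.46-fold, just outside.

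Polymerase α extends the primers. Pola2, its accessory subunit, had 6289 with ligands and 8419 with DMSO (-0.42), but a weak second probe set, below the floor with DMSO, gave at least 0.89, and the mean of the 2 was 0.24. Pola1, the catalytic subunit, had 5872 with ligands and 7244 with DMSO (-0.30) from 1 probe set. Of these genes the catalytic subunit has the single reading, and for Pola2 the sign again rests on the brighter probe set.

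Polymerases δ and ε copy the lagging and the leading strand. Pold1, the catalytic subunit of δ, had 7528 with ligands and 10369 with DMSO (-0.46, second probe set -0.35), whereas its partner Pold2 had 11964 with ligands and 12713 with DMSO (-0.09). Pole, the catalytic subunit of ε, had 5791.5 with ligands and 7002 with DMSO (-0.27), and Pole2 had 5313 with ligands and 6683 with DMSO (-0.33). The δ subunits thus differed by more than the probe set SD and the ε subunits by less.

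Subunits of RPA, which coats single-stranded DNA, had a median log2 ratio of -0.25, and none of the 3 was 20% lower by its brightest probe set. Rpa2 had 8684 with ligands and 10542 with DMSO (-0.28), and its second probe set gave -0.52. Rpa1, the large subunit, had 47717 with ligands and 56925 with DMSO (-0.25, second probe set -0.30). Rpa3, the smallest, had 15526 with ligands and 15949.8 with DMSO (-0.04).

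Nucleotide supply genes had a median log2 ratio of -0.21 over 4 genes, and none was 20% lower. Ribonucleotide reductase makes deoxynucleotides from ribonucleotides. Its large subunit Rrm1 had signals of 35602 with ligands and 41371 with DMSO, and 2 probe sets gave -0.22 each, while the last, below the floor with ligands (88.0 with ligands and 328 with DMSO), was at least 1.19-fold lower. The small subunit Rrm2 had 27737 with ligands and 33101 with DMSO (-0.26), but its other probe sets gave -0.06 and -0.04. The bright probe sets of Rrm1 agreed more closely than those of Rrm2. Tk1, the thymidine kinase of the salvage route, had 26213 with ligands and 30007 with DMSO (-0.20). Tyms, thymidylate synthase, was read by 1 weak probe set with 831 with ligands and 866 with DMSO (-0.06).

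Both Okazaki fragment genes were slightly lower. Lig1, the ligase that seals the fragments, had 13181.5 with ligands and 15778 with DMSO (-0.26). Fen1, the flap nuclease that removes primers, had 29235 with ligands and 33873 with DMSO (-0.21, second probe set -0.13). Neither was 20% lower.

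The genes that act on chromatin and signalling behind the fork differed widely. Chek1, the kinase that restrains the cell cycle when replication stalls, was the lowest member, with 3255 with ligands and 5064 with DMSO (-0.64, or 1.56-fold lower). Its second probe set gave -0.56, and another, at 386 with ligands and below the floor at 172 with DMSO, gave at least 0.48. Chaf1b, a subunit of the factor that assembles nucleosomes on new DNA, had 6059.99 with ligands and 7821 with DMSO (-0.37). The maintenance methyltransferase Dnmt1 had 18498 with ligands and 19409 with DMSO (-0.07), but 2 probe sets with the suffix _x_at gave -0.62 and -0.51.

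Uhrf1, which brings DNMT1 to hemimethylated DNA, was the member whose bright probe sets disagreed most in sign. One had 10999 with ligands and 11727 with DMSO (-0.09), and the other had 5344 with ligands and 3514 with DMSO (0.60). No direction can be given for Uhrf1, and the size of the difference for Dnmt1 depends on the probe set. The median of the 4 measured genes of this group was -0.23, with 2 at least 20% lower, against 15.5% of measured genes.

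Many genes of the same pathway outside the set also had lower signals with ligands. Over 68 measured genes in 6 further lists, 54 had negative ratios, with a median log2 ratio of -0.14, 20 were at least 20% lower and 1 was higher by the same fold, against 53.8%, 15.5% and 15.7% of measured genes. Among 14 other licensing and firing genes 12 were negative and 4 were at least 20% lower, with a median of -0.16. Recql4, a helicase needed for origin firing, was the lowest, with 1252 with ligands and 1936 with DMSO (-0.63). Cyclin E2 (Ccne2), the licensing inhibitor geminin (Gmnn) and the firing kinase Cdc7 had -0.46, -0.37 and -0.35, although another probe set of Cdc7 gave 0.09. Cdk2, the S phase kinase, was the highest at 0.13.

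Genes that work at the fork had a median of -0.27, close to that of the set. Of 19, 16 were negative and 8 at least 20% lower, against 53.8% and 15.5% of measured genes. Wdhd1, which links the helicase to polymerase α, had 5771 with ligands and 9035 with DMSO (-0.65). The fork protection genes Tipin, Timeless and Clspn had -0.49, -0.43 and -0.40. Pold4, the smallest subunit of polymerase δ, went the other way, with 5256 with ligands and 3671 with DMSO (0.52), and was the single gene of the 6 lists higher by that fold. Among the δ subunits it stood against -0.46 for Pold1, -0.09 for Pold2 and -0.27 for Pold3 by their brightest probe sets. Pold4 was read by 1 probe set, the second of Pold1 gave -0.35, and the 3 of Pold3 ran from -0.70 to -0.13.

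The remaining lists are short, and shares such as 2 of 8 at least 20% lower lie near the 15.5% of measured genes, so nothing is read from their counts. Of 8 other nucleotide genes, 6 were negative and 2 at least 20% lower, with a median log2 ratio of -0.12, from -0.40 for the serine hydroxymethyltransferase Shmt1 to 0.02 for deoxycytidine kinase (Dck). Histone handling genes had a median of -0.13 over 6, with none 20% lower, from -0.24 for the acetyltransferase Hat1 to 0.07 for Rbbp4, whose probe sets ran from -0.55 to 1.096. Of 8 replication checkpoint genes, 6 were negative and 3 at least 20% lower, with a median of -0.20, from -0.41 for the kinase Wee1 to 0.11 for the clamp subunit Rad9a.

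E2F factors and their pocket protein partners were split. Of 13 measured, 9 were negative, 3 were at least 20% lower and the median was -0.09, shares near the 53.8% and 15.5% of all measured genes. The atypical repressors were the lowest: E2f8 had 4043 with ligands and 6596 with DMSO (-0.71, second probe set -0.41), and E2f7 had 1568 with ligands and 2412 with DMSO (-0.62). The pocket protein gene Rbl1, which encodes p107, had -0.48. The activator E2f1 had -0.08 by its brightest probe set and -0.61 by another, and E2f4, a repressor in resting cells, was the highest at 0.30.

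Mitosis genes, examined for comparison, had a median of -0.26 over 24 measured genes, with 21 negative, 7 lower by 20% or more and none higher by that fold. The shares of all measured genes were 53.8%, 15.5% and 15.7%. The mitosis genes ran from -0.63 for Kif23, a kinesin of cytokinesis (15431 with ligands and 23809 with DMSO), to 0.17 for Cenpa, the centromeric histone. With 1 array per group the difference between -0.29 for the replication genes and -0.26 for the mitosis genes cannot be tested, so nothing here sets replication apart from the rest of the cell cycle.

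**Figure D4:**
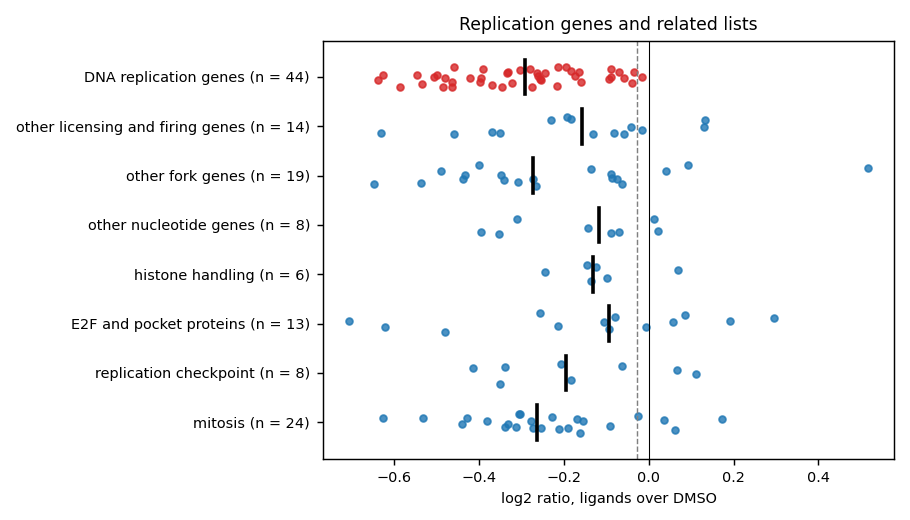
Log2 ratio of ligands over DMSO for the replication genes (red) and 7 related lists (blue), 1 point per measured gene by its brightest probe set, with points spread vertically for visibility. Black bars are medians and the dashed line is the median of all measured genes (-0.03). All red points lie below 0, and the median of the fork genes (-0.27) and of the mitosis genes (-0.26) lie nearest that of the replication genes (-0.29).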

How the data were processed

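The deposited intensities, linear values with 1 per probe set, came from 2 Affymetrix mouse arrays, 1 of ligand-treated and 1 of DMSO-treated cells. Per the submitters' processing notes, the authors used MAS5, whose version no source used here states. Both arrays had a 2% trimmed mean of 2500, so the values were used without further scaling. Of 45101 probe sets, 34945 had 1 gene symbol in the platform annotation, and 34741 of these were updated by gene identifier to GRCm38.p6. Probe sets with several symbols (932) or none (9160) were not assigned to genes, and 64 were controls.

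The median over both arrays of all gene probe sets (276.4) was the floor, lower signals were set to it, and log2 ratios of ligands over DMSO were taken. A gene was measured if either signal exceeded this floor, and was read by the probe set with the highest mean log2 signal. With 1 array per group no test, error between cultures or p-value exists, and the number of arrays limits the precision. Calls are a ligand signal 20% lower (80% of DMSO) and a fold of 1.5, read beside their share among 11077 measured genes. The members, steps, lists and alternatives were chosen with earlier results of these data known. All members are named. Of each of the 7 comparison lists the lowest and highest measured member and those at least 1.5-fold apart are named by rule, and other genes named from these lists, the cell type markers and the lists of repair and histone genes were chosen after their values were seen. Promoters were taken from the RefSeq table for GRCm38.p6 for up to 4 members with the lowest ratios and no positive probe set, and for the member with the highest ratio. The procedure was tested on simulated arrays. Python 3.11.15, numpy 2.4.6, pandas 2.3.3 and matplotlib 3.10.9 were used. Alternatives were floors at the 25th and 75th percentiles, quantile normalization, log2(signal + 32) with no floor, centring, the mean over probe sets, leaving out _s_at and _x_at probe sets, genes above the floor on both arrays, and folds of 1.1 and 2.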

Additional observations from a re-analysis of the deposited data

How the results depend on the processing

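The median log2 ratio of the replication genes stayed between -0.30 and -0.26 under all 8 other settings of floor, scaling and probe set choice. The count at least 20% lower was between 17 and 20, while the share of all measured genes ran from 10.8% to 25.6%. That share was lowest with the floor at the 75th percentile and highest with no floor. No member was higher by that fold, where 15.7% of measured genes were in the main procedure. With thresholds of 1.1-fold and 2-fold the count was 36 and 0, against 34.5% and 0.776% of measured genes. Step medians moved more. With probe sets averaged, that of the helicase was -0.30, as was that of the chromatin, methylation and checkpoint genes. Without _s_at and _x_at probe sets, the helicase median was -0.33 and that of nucleotide supply -0.13. The order of the steps therefore depends on the probe sets used. The count at least 1.5-fold lower was 0 when all probe sets of each gene were averaged, against 4.19% of measured genes. Gins3 and Prim2 have second probe sets nearer 0. Chek1 moved to -0.24, as a weak probe set of the other sign, below the floor with DMSO, counted equally. The average left 39 of 44 members below 0, against 52.1% of measured genes. It turned Mcm10 to 0.040, Pola2 to 0.24, Uhrf1 to 0.26, Gins1 to 0.19 and Rfc1 to 0.01. It also moved Cdc45 to -0.04, as probe sets with positive ratios counted equally. Below 0 were 43 of 44 members after quantile normalization and after centring, against 53.7% and 50% of measured genes. Of 351 values of single genes under these settings, 344 were negative, but many of these values repeat each other. The brightest probe sets, except that of Tyms, lay above every floor used, so the floor and offset settings could hardly change their ratios. Neither this count nor the stable median under those settings is a separate check. No paired analysis was possible because each group has 1 array. Without replicate arrays the spread between cultures is unknown, and single ratios of weak probe sets are least certain.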

Other observations

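DNA repair genes were listed after the replication values were seen, and of all measured genes 53.8% had negative log2 ratios and 15.5% were at least 20% lower. Of 21 measured genes of homologous recombination and the Fanconi pathway, 18 were negative, 9 were at least 20% lower and none was higher by that fold, with a median of -0.29. The lowest was Rad54b, a recombination ATPase, at -0.93, and the highest was Fancg at 0.30. Of 13 measured mismatch and base excision repair genes, 10 were negative and 3 at least 20% lower, with a median of -0.21, and 3 of 13 lies near the share of all measured genes.

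Histone genes that are usually expressed in S phase had ratios of both signs. Of 8 measured, 5 had positive and 3 negative ratios, where 53.8% of all measured genes were negative, and the median was 0.18. Higher by the fold that 20% lower implies were 3, and 1 was 20% lower, against 15.7% and 15.5% of all measured genes. Of these 3, H1f4 lay below the floor with DMSO (353 with ligands and 233 with DMSO), so its 0.35 is a bound. Probe sets of H1f2 ran from -0.32 to 0.60, and those of H2bc21 from -0.16 to 0.47. H2ac19 was the highest, at 0.95, with a second probe set at 0.68. These transcripts normally lack a poly-A tail and come from near-identical families, so the values of single genes are uncertain.

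A probe set assigned to both Tyms and its pseudogene Tyms-ps had a signal of 9496 with ligands and 9966 with DMSO (-0.07), close to the -0.06 of the weak probe set that names Tyms alone.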
